A study of Mus musculus with 45 samples.

Results

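DNA replication and mitosis genes were followed through every sorted population of the embryonic mouse gut epithelium in the series. The 42 genes were chosen by symbol as machinery of the cell cycle, and all 42 had a row among the 23366 gene rows of the count tables. They fell into 22 replication genes, whose products prepare or carry out S phase, and 20 mitosis genes, with main roles in G2 and mitosis. The lists do not separate the phases cleanly, and Mki67 of the mitosis list is made in all active phases of the cycle. All 42 passed the filter on low counts, and the lowest count of any of them in any library was 147 reads, for Gins3.

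The 45 RNA sequencing libraries were made from 500 sorted EpCAM-positive cells each, taken from the small intestine of wild-type embryos on a mixed C57BL/6 CD1 background. Each replicate was a pool of 3 embryos at embryonic day E13.5 or 1 embryo at E15.5. A tdTomato lineage label was started at E9.5 in all groups, in cells expressing Axin2, a target gene of Wnt signalling, or Id2, which blocks the DNA binding of basic helix-loop-helix proteins. The Axin2 line was sampled as whole gut at E13.5 and as the anterior and the posterior part at E15.5, and the Id2 line as whole gut at E13.5. In each of these 4 settings cells were sorted as unlabelled Lgr5-negative, unlabelled Lgr5-positive and tdTomato-labelled, with labelled Lgr5-positive cells as a further group outside the anterior part. The anterior counterpart was not analysed here. That gave 15 groups of 3 libraries. The labels do not give the Lgr5 state of the labelled population, so it may hold Lgr5-positive cells, and they do not name the driver of the label beyond Axin2 or Id2.

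As background, a dividing cell first licenses its replication origins, when Cdc6 and Cdt1 load the MCM helicase, and then fires them in S phase with the GINS complex, primase, the sliding clamp PCNA and its loader. Mitosis follows under cyclin B and Cdk1, with Aurora and Polo kinases, kinetochore proteins that bind chromosomes to the spindle, a checkpoint that waits for attachment, and the anaphase-promoting complex that ends the phase. Replication genes are typically transcribed under E2F factors at the G1 to S boundary. Many mitosis genes are repressed by the DREAM complex and peak in G2 and mitosis through promoter elements called CHR and CCAAT. The epithelium of the fetal gut divides while villi form, after which division becomes restricted to the regions between villi. Lgr5, a receptor for R-spondins, marks the dividing stem cells of the adult crypt.

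The promoters of the members were read from RefSeq (GRCm38.p6, 250 bases before to 50 bases after the start), which held 36 promoters of 35 members, 18 of each list. Searched on both strands, a CHR (TTTGAA or TTCGAA) was found in 14 of 18 mitosis promoters (77.8%), in 4 of 18 replication promoters (22.2%) and in 19.2% of all 32851 promoters of that length. A CCAAT was found in 88.9% of mitosis, 72.2% of replication and 37.4% of all promoters, and both motifs together in 77.8%, 22.2% and 7.52%. An E2F motif (TTTGGCGC, TTTCGCGC, TTTGCCGC or TTTCCCGC, which can overlap one another) was found in 2 of 18 mitosis promoters (11.1%), 8 of 18 replication promoters (44.4%) and 2.26% of all promoters. A match describes the letters of the window and is not a measured binding site. The median position was 23 bases before the start for CHR matches and 87 bases before it for CCAAT matches in mitosis promoters, and 44 bases before it for E2F matches in replication promoters. The 5 promoters below, each 300 bases from 5′ to 3′ on the gene's strand, were picked as examples of the motif contrast between the lists. Cenpf, Cenpm and Mki67 were higher in unlabelled Lgr5-positive cells, and Mcm5 and Mcm6 were lower in the Id2 line. Capitals mark CHR, CCAAT and E2F matches in either orientation.
Cenpf, a kinetochore protein, chr1:189688037-189688336, minus strand: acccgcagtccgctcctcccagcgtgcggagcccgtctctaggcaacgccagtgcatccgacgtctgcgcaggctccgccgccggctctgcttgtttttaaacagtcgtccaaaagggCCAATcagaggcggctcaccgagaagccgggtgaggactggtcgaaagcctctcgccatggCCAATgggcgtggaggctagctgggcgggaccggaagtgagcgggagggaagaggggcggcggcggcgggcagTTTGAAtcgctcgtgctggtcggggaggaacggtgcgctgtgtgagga
Cenpm, a centromere protein, chr15:82244287-82244586, minus strand: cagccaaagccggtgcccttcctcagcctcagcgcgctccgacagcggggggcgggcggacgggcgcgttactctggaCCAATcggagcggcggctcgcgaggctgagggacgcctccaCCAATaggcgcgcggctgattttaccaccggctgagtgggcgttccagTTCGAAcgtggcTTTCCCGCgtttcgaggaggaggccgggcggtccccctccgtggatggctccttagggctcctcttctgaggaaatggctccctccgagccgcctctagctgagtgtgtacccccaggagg
Mki67, the Ki-67 antigen of dividing cells, chr7:135716330-135716629, minus strand: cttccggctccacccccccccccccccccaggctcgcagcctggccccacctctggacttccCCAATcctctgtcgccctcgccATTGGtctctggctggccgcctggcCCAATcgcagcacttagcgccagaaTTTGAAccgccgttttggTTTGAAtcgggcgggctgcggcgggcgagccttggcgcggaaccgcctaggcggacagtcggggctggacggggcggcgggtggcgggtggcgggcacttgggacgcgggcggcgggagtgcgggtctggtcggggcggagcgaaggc
Mcm5, an MCM helicase subunit, chr8:75109259-75109558, plus strand: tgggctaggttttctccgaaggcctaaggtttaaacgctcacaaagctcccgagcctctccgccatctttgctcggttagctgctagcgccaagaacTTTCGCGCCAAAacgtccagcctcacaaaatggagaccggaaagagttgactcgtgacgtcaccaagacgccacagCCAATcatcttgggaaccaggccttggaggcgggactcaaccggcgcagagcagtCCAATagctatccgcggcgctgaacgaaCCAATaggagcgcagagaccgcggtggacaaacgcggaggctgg
Mcm6, an MCM helicase subunit, chr1:128359656-128359955, minus strand: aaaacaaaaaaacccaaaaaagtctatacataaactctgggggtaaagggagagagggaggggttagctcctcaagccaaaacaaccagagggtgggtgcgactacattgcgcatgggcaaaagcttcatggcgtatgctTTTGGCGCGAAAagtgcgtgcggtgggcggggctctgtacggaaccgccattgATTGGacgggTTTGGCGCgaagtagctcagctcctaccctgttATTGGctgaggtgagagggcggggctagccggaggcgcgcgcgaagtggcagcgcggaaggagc

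Because these windows were picked for their matches, they do not show how often the lists differ. Of the 18 replication promoters 8 held an E2F match and 4 a CHR match. Mcm2 had CCAAT and CHR matches and no E2F match, and Pcna had a CCAAT match alone. The Cenpf, Cenpm and Mki67 promoters each held CCAAT and CHR matches, and Cenpm held an E2F match as well. The Mcm5 and Mcm6 promoters held E2F and CCAAT matches and no CHR match.

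Gene reads numbered 16521311 to 19702205 in each library of the Axin2 line and 26888154 to 37729425 in each of the Id2 line. Between 13109 and 17387 genes had a read. The level of Lgr5 followed the sort: its mean was 4.64 to 26.8 CPM (a gene's count per 1000000 gene reads) in the 4 unlabelled Lgr5-negative groups and 47.8 to 77.1 CPM in the 4 unlabelled Lgr5-positive groups. Averaged over the 4 settings, Lgr5 was higher in unlabelled Lgr5-positive cells by a log2 fold change of 2.55 ± 0.39 (standard error, adjusted p = 8.06e-05, edgeR). Within settings its adjusted p was below 0.05 in the E13.5 Axin2 line alone (4.02 ± 0.84, adjusted p = 0.00687). Lgr5 stood at 2.45 ± 0.78 in the anterior part, where 0% of all genes were called. In the posterior part it stood at 2.45 ± 0.78 as well (adjusted p = 0.151 there). In the Id2 line it stood at 1.28 ± 0.74 (adjusted p = 0.544). Epcam, the surface protein used to sort epithelium, had group means of 2012 to 3068 CPM. Fold changes here are log2 values from 1 model of all 45 libraries with their standard errors, and a gene was called where the Benjamini-Hochberg adjusted p over all 15513 genes tested was below 0.05. Replicates are separate embryos or pools, but several gates, and both gut parts, of 1 embryo may have been taken, which the labels do not say.

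Levels were compared between genes per length. Per kilobase of the longest coding transcript, the highest median level over the 45 libraries was 235 CPM per kilobase for Mcm6, a subunit of the MCM helicase. Next came Rrm2, the small subunit of ribonucleotide reductase, at 194, and Ccnb2, a B-type cyclin, at 192. Mcm4, a helicase subunit, and Rfc4, a clamp loader subunit, followed at 141 and 139 CPM per kilobase. The lowest were Mki67 at 14.7, Gins3, a GINS subunit, at 11.7 and Cenpf at 11.1 CPM per kilobase. Cenpf (11130 bases) and Mki67 (10061 bases) have the longest transcripts of the members. Whether the transcripts used for length were the ones expressed was not tested. Reads from the exons of Mcm7, Gins2, Rfc4, Ccne2, Ccna2, Cdc20 and Ube2c overlap those of a neighbouring gene, and Tyms has a pseudogene with its own row. Whether counting used strand is not given in the sources used here, and their reads cannot be separated.

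The lists differed in how widely their levels ranged. The mean log2 CPM over the 22 replication genes lay between 7.08 and 7.69 in all 45 libraries. Over the 20 mitosis genes it ran from 6.47, in a posterior Lgr5-negative library, to 8.61, in an Lgr5-positive library of the Id2 line. Within a group of 3 replicates the mitosis mean spread over a median of 0.758 (0.0752 to 1.04 across groups) and the replication mean over 0.249 (0.0747 to 0.542), and the mitosis spread was the wider in 13 of 15 groups. Individual mitosis genes deviated together: after each group's mean was taken away, the mean Pearson correlation over the 45 libraries was 0.56 between pairs of mitosis genes, 0.25 between pairs of replication genes, 0.02 between a replication and a mitosis gene, and 0.01 between all genes. These correlations describe libraries of the same 500-cell sorts and share their depth and processing.

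**Figure D1:**
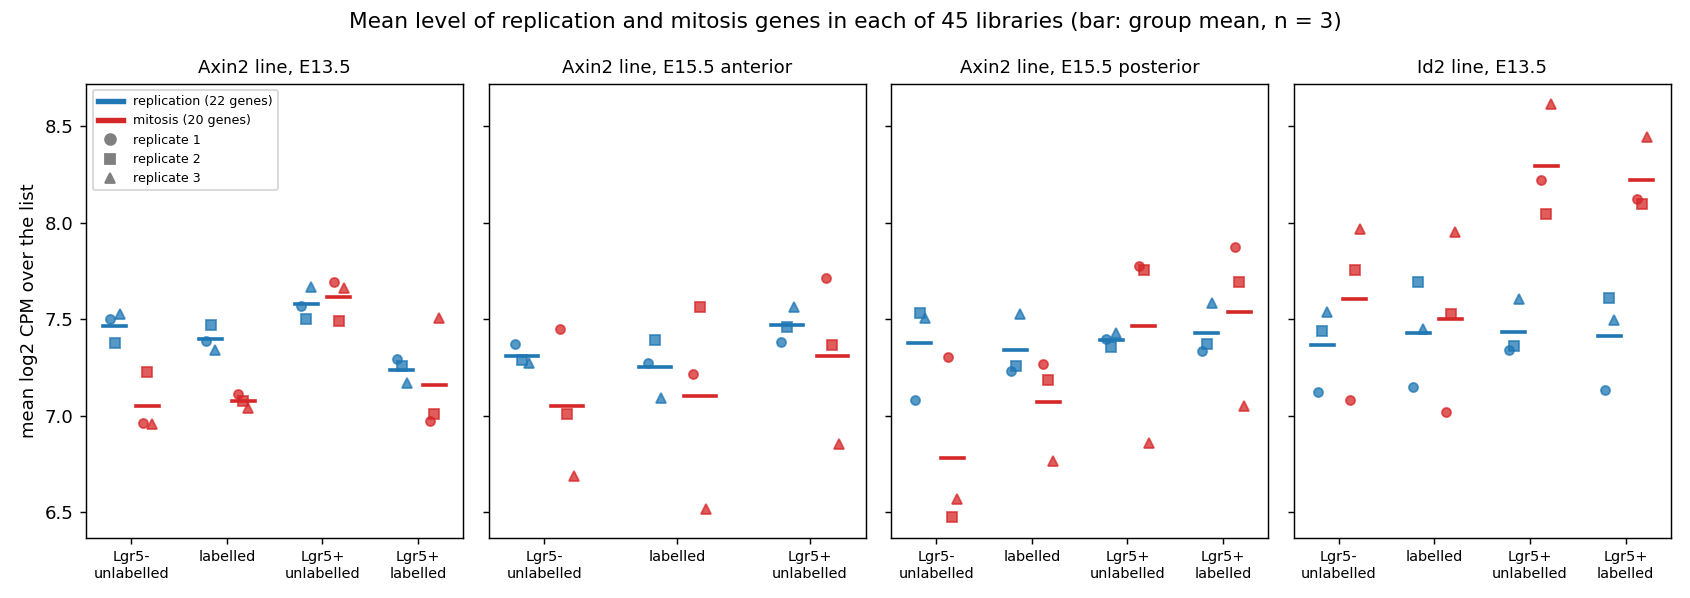
Mean log2 CPM of the 22 replication genes (blue) and the 20 mitosis genes (red) in each of the 45 libraries, by setting (panel) and sorted population (horizontal axis). Bars are group means (n = 3) and symbols are replicate numbers. Replication means stay between 7.08 and 7.69, while mitosis means range from 6.47 to 8.61 and stand highest in the Lgr5-positive populations of the Id2 line.

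Part of that spread followed the replicate number. At E15.5 the mitosis mean was lowest in replicate 3 in 6 of 7 groups, the exception being posterior Lgr5-negative cells, where replicate 2 was lowest (6.47 against 6.57). The 7 replicate 3 libraries of E15.5 ran from 6.52 to 7.05 with a median of 6.76, and the 14 libraries of replicates 1 and 2 from 6.47 to 7.87 with a median of 7.41. Replication means did not show that order, with medians of 7.51 in replicate 3 and 7.36 in the others. In the same groups the share of reads that named no gene was highest in replicate 3 in 7 of 7, at 27.2 to 29.4% against 23.9 to 28.4%, and its part in the result was not tested. In the Id2 line the mitosis mean was highest in replicate 3 in 4 of 4 groups. A call that was lost without replicate 3 of the E15.5 groups, or without replicate 3 of the Id2 groups, is given with that value.

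Between the Lgr5 gates of unlabelled cells mitosis genes were called and replication genes were not. Averaged over the 4 settings, 6 of 20 mitosis genes were higher in Lgr5-positive cells and none lower, against 2.55% of all genes called in either direction and 1.34% called higher. All 20 mitosis genes had a positive fold change, with a median of 0.63 beside 0.03 over all genes tested. None of the 22 replication genes was called by edgeR, 3 had an unadjusted p below 0.05, 16 were positive, and the median was 0.07. Over all 15513 genes tested, 2073 had an unadjusted p below 0.05. DESeq2 called 12 mitosis and 0 replication genes, beside 4.90% of all genes in either direction. With the replicate number as a block, 14 mitosis genes and 1 replication gene, Gins4 (0.27, adjusted p = 0.0455), were called, all higher in Lgr5-positive cells. The block called 5.18% of all genes in either direction and 2.59% higher. Replicate numbers did not pair the unlabelled libraries of either gut part at E15.5. The difference between the lists was not itself tested. In bulk sorted samples a larger share of cells in mitosis and more RNA per cell cannot be told apart.

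**Figure D2:**
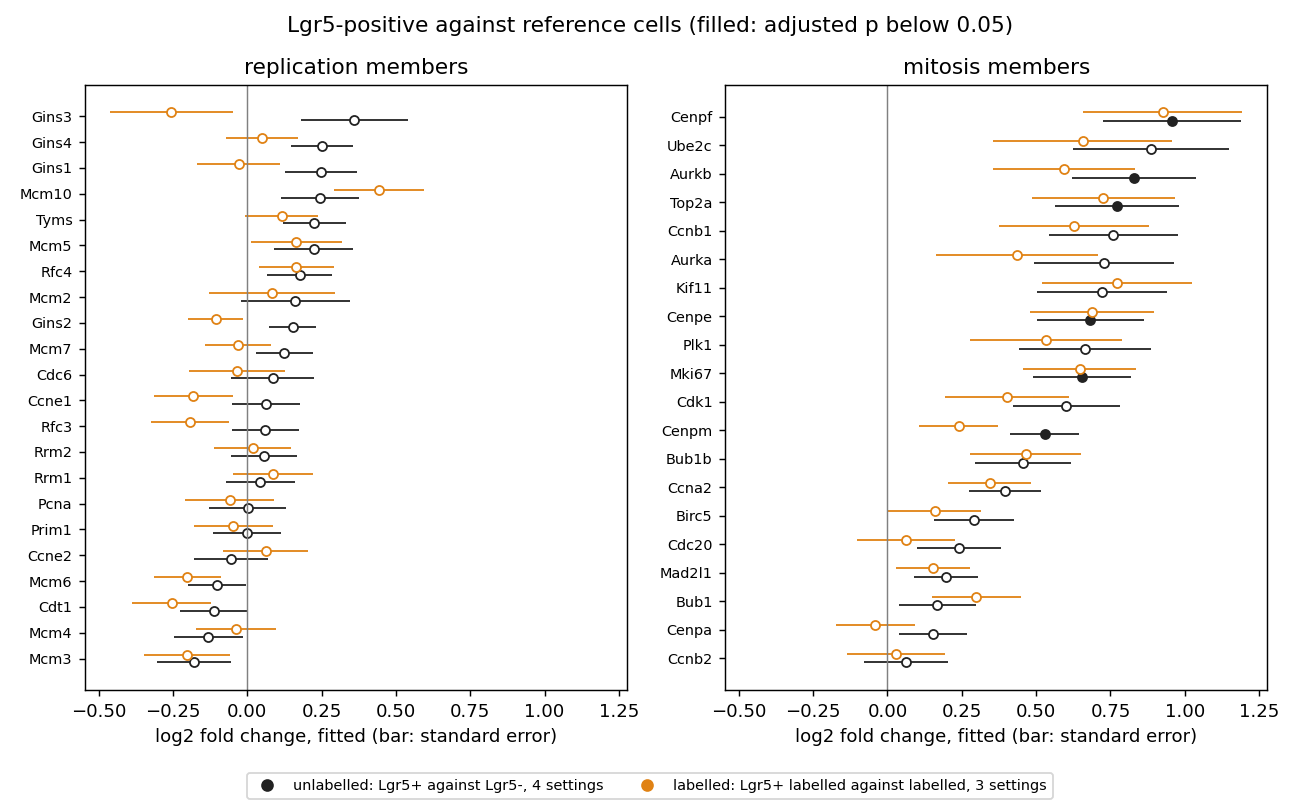
Fitted log2 fold change of each replication (left) and mitosis member (right) between Lgr5-positive cells and their reference, with standard errors as bars. Black is the unlabelled comparison over 4 settings, orange the labelled comparison over 3 settings, and filled points have an adjusted p below 0.05. The mitosis points lie at or to the right of 0 from 0.06 (Ccnb2) to 0.96 (Cenpf) in unlabelled cells, and the replication points on both sides of 0.

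Of the 6 called genes, Cenpf, Cenpm and Cenpe encode kinetochore or centromere proteins. Cenpf, a large kinetochore protein of G2 and mitosis, stood at 72.2, 116 and 72.7 CPM in the 3 Lgr5-negative libraries and 194, 185 and 191 CPM in the 3 Lgr5-positive libraries of the E13.5 Axin2 line, and at 120, 151 and 194 against 271, 191 and 339 CPM in the Id2 line. At E15.5 it stood at 68.9, 53.7 and 31.9 against 125, 84.5 and 35.4 CPM in the anterior part and at 101, 19.7 and 44.7 against 172, 185 and 77.4 CPM in the posterior part. The gates did not overlap in the E13.5 Axin2 line and overlapped in the other 3 settings. Its averaged fold change was 0.96 ± 0.23 (adjusted p = 0.0143), the largest of the mitosis members.

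Cenpm, a subunit of the centromere complex that kinetochores are built on, had the smallest adjusted p. At E13.5 its Lgr5-negative and Lgr5-positive libraries stood at 29.2, 27.4 and 27.6 against 41.1, 35.5 and 40.0 CPM in the Axin2 line and at 48.6, 62.7 and 75.7 against 78.7, 119 and 120 CPM in the Id2 line. At E15.5 they stood at 23.5, 19.4 and 17.7 against 30.3, 23.0 and 31.6 CPM in the anterior and at 24.4, 28.2 and 24.1 against 41.5, 39.4 and 30.7 CPM in the posterior part. The gates overlapped in the anterior part alone. The fold change was 0.53 ± 0.12 (adjusted p = 0.00545), and without replicate 3 of the E15.5 groups it was 0.48 (adjusted p = 0.0723).

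Cenpe, the kinetochore motor that brings chromosomes to the spindle equator, stood at 95.8, 116 and 75.1 against 184, 141 and 156 CPM in the E13.5 Axin2 line and at 216, 191 and 192 against 337, 174 and 326 CPM in the Id2 line. In the anterior part the values were 107, 64.2 and 61.4 against 145, 103 and 76.3 CPM, and in the posterior part 85.7, 24.2 and 57.4 against 148, 161 and 65.0 CPM. As with Cenpf, the gates were separate in the E13.5 Axin2 line and overlapped elsewhere, and the fold change was 0.68 ± 0.18 (adjusted p = 0.0288). This call was lost in 9 of the 24 fits that each left out 1 of the libraries compared, without replicate 3 of the Id2 groups (0.63, adjusted p = 0.0873) and without the Id2 line (0.73, adjusted p = 0.0590).

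Aurkb, the Aurora kinase of the chromosomal passenger complex, stood at 121, 174 and 144 against 286, 228 and 268 CPM in the E13.5 Axin2 line and at 56.4, 124 and 157 against 235, 154.5 and 239 CPM in the Id2 line. It stood at 202, 145 and 74.2 against 288, 217 and 127 CPM in the anterior and at 163, 81.6 and 79.1 against 258, 333 and 132 CPM in the posterior part. Only the E13.5 Axin2 gates were separate, and the fold change was 0.83 ± 0.21 (adjusted p = 0.0194), or 0.79 (adjusted p = 0.0516) without the Id2 line. The other kinases did not pass the test, with 0.73 for Aurka, which acts at spindle poles, 0.67 for Plk1, the Polo kinase, and 0.60 for Cdk1, the kinase that drives entry into mitosis.

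Top2a, the topoisomerase that untangles sister chromosomes, stood at 192, 420 and 277 against 524, 595 and 519 CPM in the E13.5 Axin2 line and at 134, 380 and 352 against 270, 410 and 483 CPM in the Id2 line. At E15.5 it stood at 308, 209 and 129 against 443, 363 and 186 CPM in the anterior and 219, 94.9 and 138 against 382, 488 and 253 CPM in the posterior part. The gates were separate in the E13.5 Axin2 line and the posterior part. The fold change was 0.77 ± 0.21 (adjusted p = 0.0325), and the call was lost in 14 of the 24 fits without 1 library and without replicate 3 of the Id2 groups (0.75, adjusted p = 0.0570).

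Mki67, which coats mitotic chromosomes and is made in all active phases of the cycle, stood at 87.9, 134.8 and 92.7 against 157, 185 and 153 CPM in the E13.5 Axin2 line and at 118, 196 and 141 against 133, 251 and 248 CPM in the Id2 line. It stood at 164, 107 and 134.8 against 257, 173 and 112 CPM in the anterior and at 114, 56.1 and 93.8 against 195, 281 and 135.5 CPM in the posterior part. As for Top2a, the E13.5 Axin2 line and the posterior part had separate gates. The fold change was 0.65 ± 0.17 (adjusted p = 0.0209), and without replicate 3 of the Id2 groups it was 0.59 (adjusted p = 0.0745).

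Mitosis genes that missed the threshold had fold changes up to 0.89 ± 0.26 for Ube2c (adjusted p = 0.0599), the ubiquitin-conjugating enzyme of the anaphase-promoting complex. Ccnb1, cyclin B1, stood at 77.9, 101 and 80.1 against 169, 129 and 178 CPM in the E13.5 Axin2 line and at 101, 153 and 222 against 355, 174 and 384 CPM in the Id2 line. At E15.5 it stood at 113, 68.3 and 50.8 against 131, 109 and 51.4 CPM in the anterior and 91.8, 45.1 and 39.2 against 157, 145 and 62.2 CPM in the posterior part. Its gates overlapped outside the E13.5 Axin2 line, and at 0.76 ± 0.22 its adjusted p was 0.0502. The smallest value was 0.06 for Ccnb2, the other B-type cyclin.

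Mcm2 and Pcna had overlapping gates, which did not hold for every replication gene. Gates were separate for 4 of 22 replication genes in the E13.5 Axin2 line, 5 in the anterior part, 2 in the posterior part and 2 in the Id2 line. Mcm6 was separate in both lines at E13.5, in opposite directions, and its values are given at the end. Mcm2, a helicase subunit used as a marker of licensed cells, stood at 252, 571 and 479 CPM in Lgr5-negative against 396, 624 and 537 CPM in Lgr5-positive libraries of the E13.5 Axin2 line and at 153, 251 and 124 against 120, 332 and 134 CPM in the Id2 line. It stood at 299.5, 416 and 411 against 366, 423 and 377 CPM in the anterior and at 251, 379 and 377 against 338, 406 and 520 CPM in the posterior part. Its gates overlapped in all 4 settings, with a fold change of 0.16 ± 0.18 (adjusted p = 0.834).

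Pcna, the sliding clamp of the replication fork, stood at 146, 81.2 and 122 against 126, 95.1 and 138 CPM in the E13.5 Axin2 line and at 110, 160 and 232 against 139, 126 and 205 CPM in the Id2 line. It stood at 107, 87.1 and 90.6 against 114, 105 and 113 CPM in the anterior and 92.6, 113 and 118 against 113, 108 and 102 CPM in the posterior part. These gates also overlapped in all 4 settings, and the fold change was 0.00 ± 0.13. The largest replication value was 0.36 ± 0.18 for Gins3 (adjusted p = 0.38).

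**Figure D3:**
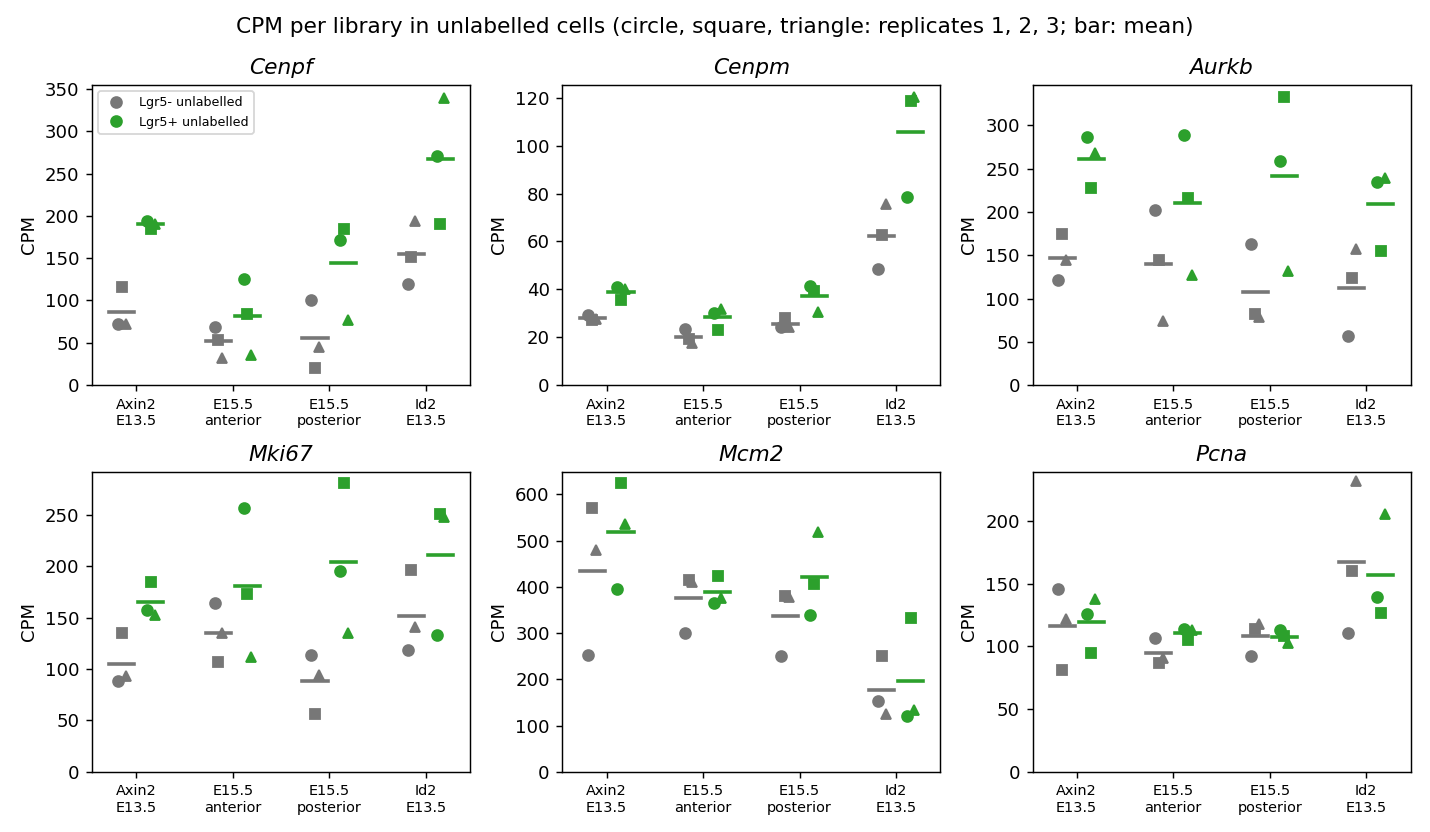
CPM of 4 called mitosis genes and 2 replication genes in unlabelled Lgr5-negative (grey) and Lgr5-positive (green) libraries of the 4 settings, with symbols for replicates 1 to 3 and bars for means (n = 3). Lgr5-positive means of the mitosis genes lie above their Lgr5-negative means in every setting, while Mcm2 and Pcna overlap in every setting. Other replication genes, Mcm6 among them, had separate gates in some settings.

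Within single settings no member was called by edgeR, where 0.87% (E13.5 Axin2), 0% (anterior), 0.393% (posterior) and 0.477% (Id2) of all genes were. Unadjusted p-values below 0.05 numbered 2, 0, 10 and 9 of the 20 mitosis genes and 0, 0, 0 and 5 of the 22 replication genes in that order. Over the 15513 genes tested they numbered 882, 207, 2298 and 1742. The median fold changes of mitosis genes were 0.58, 0.28, 0.80 and 0.62, and those of replication genes 0.13, 0.18, 0.05 and 0.16. Gates did not overlap for 14, 0, 4 and 4 of 20 mitosis genes and for 4, 5, 2 and 2 of 22 replication genes, and over all genes tested for 17.8%, 9.79%, 30.4% and 10.1%. Replicate numbers paired the libraries at E13.5, and with the number as a block Ube2c was called higher in the Axin2 line (1.01, adjusted p = 0.0474). In the Id2 line the block called 3 mitosis genes higher, Ccna2 (0.89), Ube2c (1.24) and Cenpm (0.80), Gins4 higher (0.61) and Mcm4 lower (-0.60). Over all genes the block called 109 higher and 111 lower in the E13.5 Axin2 line and 115 and 153 in the Id2 line. No member's gate difference was called to depend on stage, line or gut part by edgeR. Of all genes 0.168%, 0% and 0.00645% were called in that order. For the line 3 replication genes had an unadjusted p below 0.05, as did 586 of the 15513 genes tested.

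Further genes of both pathways were counted in the same way. Of 56 further mitosis genes 12 were higher in unlabelled Lgr5-positive cells, beside 1.34% of all genes. None was lower and all 56 were positive, with a median of 0.43. The replicate block called 29 higher, beside 2.59% of all genes. The 12 included Incenp, the scaffold of the chromosomal passenger complex (1.02 ± 0.20, adjusted p = 0.00184), Spc25, a subunit of the NDC80 kinetochore complex (0.77 ± 0.17, adjusted p = 0.00643), and Cdc25b, the phosphatase that activates Cdk1 (1.22 ± 0.28, adjusted p = 0.00733). Of 38 further replication genes none was called and 9 had an unadjusted p below 0.05, with a median of 0.21. None of 20 genes of G1 cyclins and the E2F and Rb families was called, and 4 had an unadjusted p below 0.05. Over all genes this held for 2073 of the 15513 tested. Of 11 tested genes of cell cycle exit, Cdkn2b, an inhibitor of the G1 kinases, was lower (-3.18 ± 0.54, adjusted p = 0.000284) and Fzr1, a G1 activator of the anaphase-promoting complex, was higher (0.55 ± 0.15, adjusted p = 0.0414).

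Markers of other cell types moved with the same gate. Of 10 enterocyte markers 5 were lower in Lgr5-positive cells, and their summed level was 399 to 2752 CPM (median 844) in the 12 Lgr5-negative libraries and 108 to 2211 CPM (median 372) in the 12 Lgr5-positive ones. Of 9 mesenchyme markers tested, 1 was higher, Vim (1.26 ± 0.19, adjusted p = 7.33e-05), and all 9 were positive, with sums of 18.9 to 305 against 41.5 to 805 CPM. The goblet factor Atoh1 was higher (1 of 8 goblet markers) and 2 of 10 liver and pancreas markers tested were lower. No enterocyte marker was at 0 throughout a group, while Twist1, a mesenchyme factor, had no read in both gates of the E13.5 Axin2 line and in posterior Lgr5-negative cells. The part of these markers in the mitosis result was not tested.

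In labelled cells the comparison was of Lgr5-positive labelled cells with the labelled population over 3 settings. No member was called by edgeR, where 1.83% of all genes were. Of the 20 mitosis genes 19 were positive with a median of 0.45, and 11 had an unadjusted p below 0.05. Of the 22 replication genes 9 were positive with a median of -0.03, and 1 had an unadjusted p below 0.05. That threshold was passed by 2248 of the 15513 genes tested. The largest values were 0.93 ± 0.27 for Cenpf (adjusted p = 0.062) and 0.44 ± 0.15 for Mcm10, which helps to activate the helicase (adjusted p = 0.13). DESeq2 called 5 mitosis and 0 replication genes, beside 4.78% of all genes. A fit blocked on the replicate number called 9 mitosis genes and Mcm10, beside 3.69% of all genes. The numbers did not pair the libraries of the E13.5 Axin2 line in this comparison. In the Id2 line alone, where numbers paired the libraries, the block called 6 mitosis genes higher, namely Cenpm, Ube2c, Cdk1, Cenpf, Top2a and Ccnb1, and Mcm6 lower (-0.73, adjusted p = 0.0165). Over all genes it called 250 higher and 258 lower in that line. Of 56 further mitosis genes 3 (18 with the block) were called higher, namely Cdca2, which recruits a phosphatase to chromosomes at mitotic exit (0.96), Hmmr, a spindle protein (0.84), and Kif4, a chromosome-bound kinesin (0.75). Across the 20 mitosis members the fold change ranked with transcript length (Spearman 0.61, beside 0.19 over 13865 genes). This was not particular to the labelled gate, and the value was 0.29 for the unlabelled gate. It was highest at 0.82 for the Id2 label among Lgr5-positive cells (0.09 over all genes). For the difference of the unlabelled gate between lines it was lowest, at -0.85 (-0.09 over all genes). The part of length was not tested.

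Cenpm went opposite ways with the gate in labelled cells. In the E13.5 Axin2 line it stood at 30.4, 29.6 and 29.6 CPM in labelled libraries and at 13.8, 19.1 and 17.5 CPM in Lgr5-positive labelled libraries. In the Id2 line it stood at 39.8, 39.1 and 62.2 against 82.6, 94.5 and 119 CPM, and in the posterior part at 28.7, 25.3 and 30.9 against 46.5, 37.9 and 38.0 CPM. The populations did not overlap in any of the 3 settings, with the Lgr5-positive side the lower in the Axin2 line at E13.5 and the higher in the other two. Within settings Cenpm was called lower in the E13.5 Axin2 line (-0.86 ± 0.23, adjusted p = 0.0497), where 1.53% of all genes were called, and higher in the Id2 line (1.08 ± 0.23, adjusted p = 0.0118), where 1.21% were. The difference between the Id2 and the E13.5 Axin2 line was itself called for Cenpm (1.94 ± 0.33, adjusted p = 0.00458), with 0.342% of all genes. Gins2, a GINS subunit, was the other member called lower in the E13.5 Axin2 line (-0.66 ± 0.16, adjusted p = 0.0282). The 3 E13.5 Axin2-labelled Lgr5-positive libraries had the fewest genes detected in the Axin2 line, 13109, 13279 and 13339. In the Id2 line, replicate 2 had 13302 genes detected in labelled and 13244 in Lgr5-positive labelled cells. Without the 3 E13.5 Axin2-labelled Lgr5-positive libraries, over the posterior part and the Id2 line, the median of the mitosis genes was 0.69 with 1 called.

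Markers of other cell types also moved with the labelled gate. Of 10 enterocyte markers 2 were lower in Lgr5-positive labelled cells, with sums of 275 to 1229 CPM in the labelled and 137 to 878 CPM in the Lgr5-positive labelled libraries. Of 8 goblet markers 2 were higher and of 9 mesenchyme markers tested 2 were higher, the mesenchyme sums being 44.4 to 358 against 92.3 to 1593 CPM. Of 10 liver and pancreas markers tested 2 were lower. No enterocyte or goblet marker was at 0 throughout a group, while Twist1 had no read in posterior labelled cells or in Lgr5-positive labelled cells of both lines at E13.5. The part of these markers in the result was not tested.

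From E13.5 to E15.5 in the Axin2 line few members were called, although 33.5% of all genes were. Averaged over the 3 populations present at both stages, 2 of 22 replication genes and 1 of 20 mitosis genes were lower at E15.5 and none was higher, with 17.9% of all genes called lower. The medians were -0.12 for replication and -0.03 for mitosis genes beside -0.04 over all genes. No member had separate stages over the 9 libraries of E13.5 and the 18 of E15.5, against 6.69% of all genes.

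Both called replication genes encode subunits of the GINS complex, which travels with the helicase at the fork. Its subunits Gins1 (medians of 46.9 CPM at E13.5 and 39.0 CPM at E15.5) and Gins3 (32.1 and 32.3 CPM) were not called. Gins2 ran from 114 to 169 CPM (median 141) at E13.5 and from 73.0 to 130 CPM (median 102) at E15.5. Its fold change was -0.43 ± 0.08 (adjusted p = 3.35e-05), and the call held in all 27 fits that left out 1 library. Gins4, another subunit, ran from 93.0 to 132 CPM (median 112) and from 76.1 to 122 CPM (median 93.0). At -0.27 ± 0.10 (adjusted p = 0.0440) it was near the threshold, 22 of the 27 fits lost the call, and without replicate 3 of the E15.5 groups it was -0.23 (adjusted p = 0.166). Mcm3, a helicase subunit, ran from 305 to 427 CPM (median 355) and from 190 to 419 CPM (median 279.9), at -0.31 ± 0.12 (adjusted p = 0.0517). Mcm2 had medians of 531 and 382 CPM (-0.25 ± 0.18) and Pcna of 109 and 104 CPM (-0.12 ± 0.13), and neither passed the test.

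Among mitosis genes Cenpf was the one called. It ran from 72.2 to 194 CPM (median 121) at E13.5 and from 19.7 to 185 CPM (median 74.3) at E15.5, a fold change of -0.65 ± 0.23 (adjusted p = 0.0222). Without replicate 3 of every E15.5 group it was -0.34 (adjusted p = 0.204). Ccna2, cyclin A2, ran from 238 to 385 CPM (median 286) and from 248 to 468 CPM (median 367), at 0.29 ± 0.12 (adjusted p = 0.0658). Cenpm ran from 27.4 to 41.1 CPM (median 29.6) and from 15.3 to 41.5 CPM (median 24.9), at -0.26 ± 0.11 (adjusted p = 0.0747). Mki67 had medians of 134.8 and 150.7 CPM (0.32 ± 0.17) and Ccnb1 of 97.3 and 88.0 CPM (-0.32 ± 0.21), again short of the threshold. Mitosis members had values on both sides of 0, and 19 of 22 replication members were negative.

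**Figure D4:**
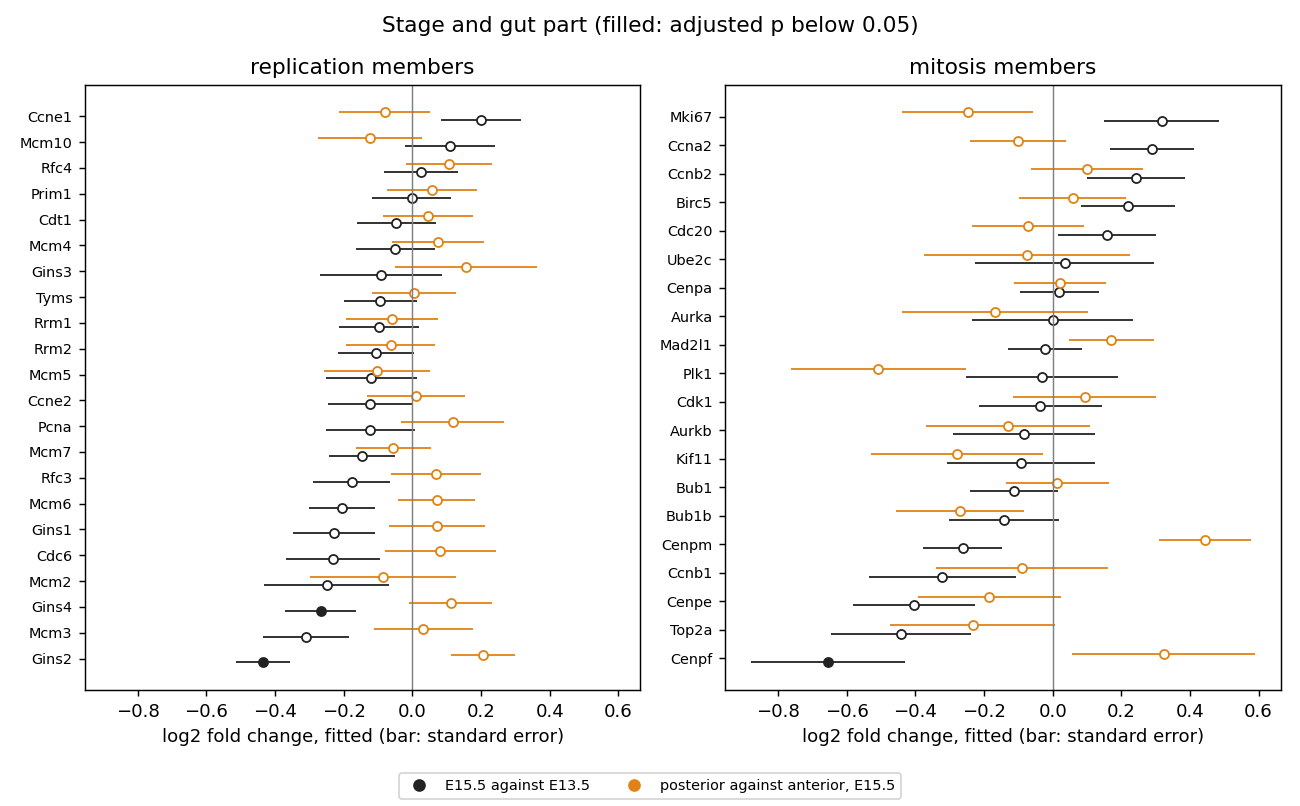
Fitted log2 fold change of each replication (left) and mitosis member (right) for E15.5 against E13.5 (black) and for the posterior against the anterior part at E15.5 (orange), with standard errors as bars and filled points for an adjusted p below 0.05. Gins2, Gins4 and Cenpf are the filled points, all for stage and all negative.

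By population, Gins2 was called lower at E15.5 in labelled cells (-0.55, adjusted p = 0.00458, where 12.4% of all genes were called) and in Lgr5-negative cells (-0.41, adjusted p = 0.0408, 13.3%). No member was called by edgeR in unlabelled Lgr5-positive cells, where 9.5% of all genes were. An unadjusted p below 0.05 was found for 2 replication and 0 mitosis genes, and for 3483 of the 15513 genes tested. The anterior part against E13.5 gave 4 calls, all lower, among 32.1% of all genes: Gins2 (-0.54), Gins4 (-0.32), Cenpf (-0.82) and Cenpm (-0.48, adjusted p = 0.00468). The posterior part gave 1, Gins2 (-0.33, adjusted p = 0.00685), among 24.2%. In Lgr5-positive labelled cells of the posterior part against those of E13.5, Cenpm (1.35 ± 0.23, adjusted p = 0.000263) and Birc5, survivin of the chromosomal passenger complex (0.90 ± 0.27, adjusted p = 0.0224), were higher, among 14.6% of all genes. The E13.5 side there is the 3 libraries of the Axin2 line with the fewest genes detected, whose part was not tested. The difference of this stage change from that in unlabelled Lgr5-positive cells was 1.41 ± 0.33 for Cenpm (adjusted p = 0.156) and 0.73 ± 0.38 for Birc5 (adjusted p = 0.357). No member's difference was called by edgeR there, and 0% of all genes were.

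Further genes were counted for stage beside 33.5% of all genes called in either direction and 17.9% called lower. At E15.5, of 38 further replication genes, 2 were called higher and 7 called lower, among them Cdc7, the kinase that fires origins (-0.72), Rpa1, which coats single-stranded DNA (-0.34), and Asf1b, a histone chaperone (0.50). Of 56 further mitosis genes 3 were higher and 9 lower, among them Cdca3, a trigger of mitotic entry (0.62), and Cep55 (-0.63) and Ect2 (-0.66), which act in cytokinesis. Of 20 G1 cyclin and E2F and Rb genes 4 were higher, including Ccnd2, a D-type cyclin (0.70), and Rb1, the retinoblastoma protein (1.66), and 3 were lower, including E2f6, a repressive E2F factor (-0.47). Of 11 tested exit genes 3 were higher and none lower, beside the same 33.5% of all genes: Cdkn1a, the inhibitor p21 (0.99 ± 0.16, adjusted p = 4.06e-06), Cdkn2b (2.69) and Ccng1, a p53 target (0.51).

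Differentiation markers were higher at E15.5. All 8 goblet and all 10 enteroendocrine markers were higher at E15.5, with sums of 12.7 to 53.3 against 332 to 2860 CPM and of 10.2 to 16.5 against 224 to 2123 CPM. Of 10 enterocyte markers 7 were higher, with sums of 108 to 559 against 323 to 2752 CPM, and no goblet, enteroendocrine or enterocyte marker was at 0 throughout a group. Of 8 epithelium markers 6 were higher at E15.5, with sums of 5811 to 7908 against 7631 to 10448 CPM. Of 9 mesenchyme markers tested Vim (-2.60 ± 0.18, adjusted p = 6.6e-14) and Col3a1 (-1.96 ± 0.59, adjusted p = 0.00922) were lower, with sums of 126 to 569.7 against 18.9 to 199.99 CPM. The part of these markers in the members' values was not tested.

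Between the gut parts at E15.5, posterior against anterior over 3 populations, no member was called by edgeR, where 3.64% of all genes were. In each list 1 gene had an unadjusted p below 0.05, as did 2085 of the 15513 genes tested. DESeq2 called 1 mitosis gene and 0 replication genes, beside 5.23% of all genes. The medians were 0.05 for replication and -0.08 for mitosis genes. The largest values were 0.21 ± 0.09 for Gins2 (adjusted p = 0.298) and -0.51 ± 0.26 for Plk1 (adjusted p = 0.389). Cenpm ran from 15.3 to 31.6 CPM (median 21.8) in the 9 anterior libraries and from 24.1 to 41.5 CPM (median 28.7) in the 9 posterior ones, at 0.44 ± 0.13 (adjusted p = 0.0547), and without replicate 3 of both parts at 0.44 (adjusted p = 0.290). The parts overlapped, and Cenpm was called by DESeq2, by limma and by the fit with only the libraries compared. With the replicate number as a block, a pairing that held in the labelled population alone, it was 0.45 (adjusted p = 0.00354). Of 38 further replication, 56 further mitosis and 20 G1 and E2F genes none was called (2, 3 and 2 at an unadjusted p below 0.05), and of 11 exit genes Btg1, an antiproliferative factor, was higher in the posterior part (0.59). Of 10 enterocyte markers 6 were lower in the posterior part, with sums of 1012 to 2752 against 323 to 1153 CPM. Of 10 liver and pancreas markers tested 7 were lower, among them the pancreatic enzyme genes Ctrb1 (-10.89 ± 1.67, adjusted p = 6.56e-05) and Cpa1 (-10.68 ± 2.04, adjusted p = 0.00165), with sums of 171 to 1010 against 109 to 248 CPM. Ghrl (1 of 10 enteroendocrine markers) was lower, and Vim (1 of 9 mesenchyme markers tested) was higher (1.83 ± 0.23, adjusted p = 7.93e-07). The part of these markers was not tested.

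The lineage label was not accompanied by a called member in any averaged comparison with edgeR. Axin2-labelled against unlabelled Lgr5-positive cells gave medians of -0.13 for replication and -0.12 for mitosis genes, with 0% of all genes called. An unadjusted p below 0.05 was found for 3 and 1 members in that order and for 1157 of the 15513 genes tested. The largest values of this comparison were -0.49 ± 0.25 for Gins3 and -0.54 ± 0.16 for Cenpm (adjusted p = 0.348). Id2-labelled against unlabelled Lgr5-positive cells gave medians of -0.00 and -0.04, with 0.0387% of all genes called. No member had an unadjusted p below 0.05, beside 1215 of the 15513 genes tested. The largest values there were -0.67 ± 0.36 for Gins3 and -0.57 ± 0.28 for Cdc20, the activator of the anaphase-promoting complex. DESeq2 called no member in either.

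Against unlabelled Lgr5-negative cells the labelled population gave medians of -0.05 and 0.11 in the Axin2 line, with 0% of all genes called, and of 0.08 and -0.09 in the Id2 line, with 0.00645% called. Of the members 1, Mki67 in the Axin2 line, had an unadjusted p below 0.05 (0.39 ± 0.19, adjusted p = 0.963). Over the 15513 genes tested 708 had one in the Axin2 line and 880 in the Id2 line. The largest values were -0.26 for Ccne2, a cyclin E that starts S phase, and 0.42 for Cenpf in the Axin2 line, and 0.41 for Ccne1, the other cyclin E, and -0.48 for Bub1, a checkpoint kinase, in the Id2 line. DESeq2 called no member in either.

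In the single setting of E13.5, 2 members were called lower in Axin2-labelled than in unlabelled Lgr5-positive cells, where 0.322% of all genes were called. They were Gins2 (-0.71 ± 0.16, adjusted p = 0.0374), at 145, 129 and 169 CPM unlabelled and 90.8, 99.9 and 87.2 CPM labelled, and Cenpm (-1.24 ± 0.23, adjusted p = 0.0115). Both sets of libraries were separate. They rest on the 3 labelled Lgr5-positive libraries, which had the fewest genes detected in the Axin2 line. The part of this was not tested. In the posterior part no member was called by edgeR and none had an unadjusted p below 0.05. There 0% of all genes were called, and 371 of the 15513 tested had an unadjusted p below 0.05.

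Between the lines at E13.5, Id2 against Axin2 over 4 populations, most members differed, as did 59.2% of all genes. In the Id2 line 9 of 22 replication genes were called higher and 12 called lower, and of 20 mitosis genes 11 were higher and 2 lower, beside 30.4% of all genes called higher and 28.8% called lower. The 2 lines also differ in depth and in the share of reads that named no gene (23.9 to 29.4% in the Axin2 line and 33.4 to 49.0% in the Id2 line), so line, depth and processing cannot be told apart. Markers of cell types differed as well. Of 8 epithelium markers 6 were lower in the Id2 line and 2 higher, with sums of 5325 to 7908 CPM in the Axin2 and 3490.2 to 6719 CPM in the Id2 line. Of 10 liver and pancreas markers tested 7 were higher, with sums of 71.7 to 354 against 267 to 3346 CPM. Of 10 enterocyte markers 3 were higher and 4 lower, and 5 of 10 enteroendocrine, 2 of 8 goblet and 2 of 9 mesenchyme markers tested were higher. Their part in the members' values was not tested.

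The helicase subunits were on 1 side. All 7 MCM members, Mcm2 to Mcm7 and Mcm10, were lower in the Id2 line. Mcm5 ran from 239.9 to 589 CPM (median 424) in the 12 libraries of the Axin2 line and from 78.7 to 164 CPM (median 105) in the 12 of the Id2 line, a fold change of -1.69. Mcm6 ran from 1069 to 1457 CPM (median 1261) and from 284 to 787 CPM (median 530.5). Neither gene's lines overlapped. Tyms, thymidylate synthase, ran from 171 to 275 CPM (median 209) and from 355 to 687 CPM (median 572), a fold change of 1.59, and Rfc4, Gins1, Rfc3 and Gins2 were higher at 1.60, 1.45, 1.33 and 0.98.

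Of the mitosis genes Ube2c had the largest value at 2.63 ± 0.28 (adjusted p = 2.53e-10), followed by Cdk1 at 1.93, Birc5 at 1.81, Cenpm at 1.68, the checkpoint gene Mad2l1 at 1.61 and Cenpa, the histone H3 of centromeres, at 1.49. Birc5 ran from 115 to 274 CPM (median 200.2) and from 296 to 853 CPM (median 602). Bub1b, the checkpoint protein BubR1 (-1.24), and Ccna2 (-0.52) were lower. The lines did not overlap for 9 replication genes, Mcm3, Mcm4, Mcm5, Mcm6, Mcm7, Gins1, Tyms, Rfc3 and Rfc4, and for 4 mitosis genes, Bub1b, Mad2l1, Cenpa and Birc5, beside 14% of all genes tested. Across members the fold change ranked against transcript length, with Spearman values of -0.58 over 22 replication genes and -0.15 over 20 mitosis genes beside -0.23 over 13865 genes.

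**Figure D5:**
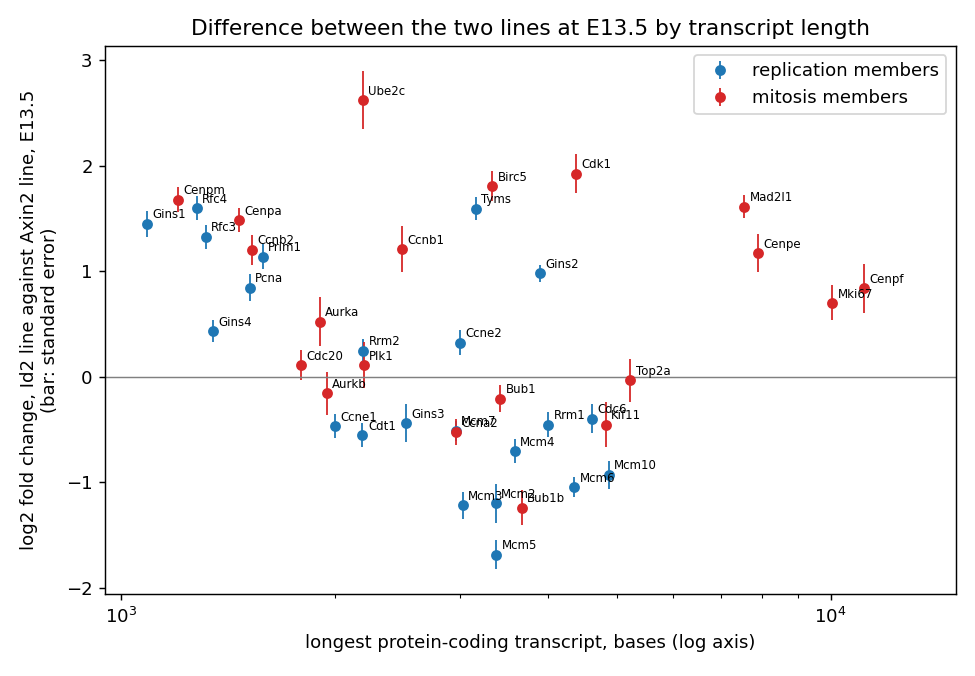
Fitted log2 fold change between the Id2 and the Axin2 line at E13.5 (vertical axis, bars are standard errors) against the length of each member's longest coding transcript (horizontal log axis, bases), for 22 replication (blue) and 20 mitosis genes (red). MCM genes lie below 0 and Ube2c stands highest at 2.63.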

How the data were processed

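RNA was measured in 45 libraries of 500 sorted cells in 15 groups of 3. PolyA RNA was made into cDNA (SMARTer v3.0, 15 PCR cycles, Ovation Ultralow libraries, per the labels' protocols) with no molecular identifiers, so reads are not independent molecules. The authors deposited whole-number read counts per gene. Tools named per the submitters' processing notes are bcl2fastq 1.8.4, STAR 2.3.1z13, SAMtools 1.2, HTSeq 0.6.1p1 and DESeq2 1.14.1, with build mm9. Neither the annotation nor the strand setting is given in the sources used here. The 5 closing rows of each table, which name no gene, entered neither library sizes nor tests. They held 23.9 to 29.4% of reads in the Axin2 line and 33.4 to 49.0% in the Id2 line.

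CPM is a gene's count per 1000000 gene reads, and log2 CPM used a prior count of 2. Counts were tested with edgeR 4.0.16 in R 4.3.3 (quasi-likelihood, robust, TMM, filterByExpr with a minimum count of 10 and a minimum total of 15, 15513 genes kept) in 1 fit of 15 group means with 30 residual degrees of freedom, checked on simulated data. Stage, part, gate and label contrasts average the settings with both sides. Alternatives were DESeq2 1.42.0, limma 3.58.1, other scaling, no filter, only the libraries compared, 1 library left out and a replicate block. The block took each replicate number within a setting, or within E15.5 for the part. For stage and line it took each number across all libraries, although stages and lines hold different embryos. The members and gene lists were chosen with earlier results of these data known. Among the members, the text names those called in each averaged comparison (at most 6 of a list), the largest change of each list, and a few given by library.

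Chi-square values between the counts of replicates were 14.3 to 346 per degree of freedom, so none was a copy of another. The groups share replicate numbers whose meaning the labels leave unstated. Numbers were taken to pair 2 groups where the departures of same-numbered libraries from the means of their groups correlated above 0.1 in all 3 pairs. That was read from the data, and held for the unlabelled gate in the E13.5 Axin2 (0.236 to 0.727) and Id2 lines (0.280 to 0.499) and not at E15.5. It held for the labelled gate of the posterior part (0.236 to 0.434) and of the Id2 line (0.188 to 0.407), for the label among Lgr5-positive cells in the same settings, for labelled cells set against Lgr5-negative ones of the anterior part (0.403 to 0.720) and of the Id2 line (0.128 to 0.528), and between parts in labelled cells (0.335 to 0.408). Gene lengths are of the longest coding transcript in GENCODE M21, and promoters are from RefSeq (GRCm38.p6), used for letters and lengths only since the counts are on mm9.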

Additional observations from a re-analysis of the deposited data

Results flagged for a closer look

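Of the members 3 had gate differences that went opposite ways in 2 settings, every library of one side lying above every library of the other in 1 setting and below it in the next. Over the same 10 pairs of settings this held for 5.19% of all genes tested. Cenpm, a centromere protein, fell with the Lgr5 gate in labelled cells of the E13.5 Axin2 line and rose with it in the Id2 line, and the difference between the lines was 1.94 ± 0.33 (adjusted p = 0.00458, with 0.342% of all genes called). Against the posterior part the same difference for Cenpm was 1.36 ± 0.33 (adjusted p = 0.113, with 0.0387% of all genes called). The Lgr5-positive labelled libraries of the E13.5 Axin2 line, on which both rest, had the fewest genes detected in that line. In the Id2 line, replicate 2 had 13302 genes detected in labelled and 13244 in Lgr5-positive labelled cells. The part of gene detection was not tested.

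For Tyms, thymidylate synthase, labelled libraries of the E13.5 Axin2 line stood at 204, 185 and 213 CPM and Lgr5-positive labelled ones at 175, 180 and 171 CPM, and in the posterior part at 186, 177 and 199 against 269, 212 and 252 CPM. The difference was 0.58 ± 0.30 (adjusted p = 0.527) and did not pass the test. For Mcm6, a helicase subunit, unlabelled Lgr5-negative libraries stood at 1188, 1119 and 1282 CPM and Lgr5-positive ones at 1406, 1333 and 1444 CPM in the E13.5 Axin2 line, and at 608, 731 and 560 against 457, 361 and 529 CPM in the Id2 line. The difference was -0.64 ± 0.27 (adjusted p = 1.00), with 0% of all genes called.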

How the results depend on the processing

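Counts of called members depended on the tool more than on scaling. For stage, replication calls went from 2 to 1 with RLE size factors, without the filter and with DESeq2, to 11 with limma and to 4 with only the libraries compared. Mitosis calls went from 1 to 2 with RLE size factors, DESeq2 and the replicate block, to 8 with limma and to 6 with only the libraries compared. Over all genes the share called for stage was 33.2% with RLE size factors, 22.7% without the filter and 35.6% with DESeq2. It was 57.8% with limma, 50.6% with only the libraries compared and 34.7% with the block. For stage the block shared each replicate number across both stages and lines, whose embryos differ, so it did not pair libraries. For the part, mitosis calls went from 0 to 1 with limma, DESeq2, only the libraries compared and the block. In that order 16.9%, 5.23%, 12.5% and 5.98% of all genes were called. For the unlabelled gate, mitosis calls went from 6 to 16 with limma, 12 with DESeq2 and 14 with the block, and replication calls from 0 to 2 with limma and 1 with the block. Of all genes limma called 7.66%, DESeq2 4.90% and the block 5.18%. For the labelled gate, mitosis calls went from 0 to 5 with DESeq2 and 9 with the block, and replication calls from 0 to 1 with the block. DESeq2 called 4.78% and the block 3.69% of all genes there. Axin2-labelled against Lgr5-negative cells gave 1 mitosis call with limma, beside 3.83% of all genes. The cause was not tested. In the E15.5 unlabelled gates the replicate numbers did not pair the libraries. Nor did they in the E13.5 Axin2 labelled gate (correlations of 0.0921 to 0.171) or for the Axin2 label at E13.5 (-0.0139 to 0.275). In these comparisons the block groups libraries that share a number only, and the averaged block fits of both gates include such settings. Among single settings, in the order of replication and mitosis calls, the block moved the unlabelled gate from 0 and 0 to 0 and 1 in the E13.5 Axin2 line, to 0 and 7 in the posterior part and to 2 and 3 in the Id2 line. It moved the labelled gate from 1 and 1 to 3 and 2 in the E13.5 Axin2 line and from 0 and 1 to 1 and 6 in the Id2 line, the Axin2 label at E13.5 from 1 and 1 to 4 and 4, and stage in posterior Lgr5-positive labelled cells from 0 and 2 to 2 and 2. Over all genes the block called, higher and lower, 109 and 111, 190 and 194, and 115 and 153 in those unlabelled gates. It called 297 and 940 and 250 and 258 in those labelled gates. For the Axin2 label at E13.5 it called 184 and 703, and for that stage comparison 1495 and 1140. Further mitosis genes went from 12 to 29 in the unlabelled and from 3 to 18 in the labelled gate. Further replication genes went from 0 to 2 in the unlabelled and from 0 to 1 in the labelled gate, both further lists from 0 to 1 for the part, and further mitosis genes from 0 to 1 for the Axin2 label. The block moved no other count by over 1.5 times, among those of the members in averaged and single comparisons and of the further genes in averaged ones.

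Leaving out 1 library at a time gave, for stage, 1 to 3 replication and 0 to 2 mitosis calls, for the part 0 to 1 mitosis calls, for the unlabelled gate 0 to 1 replication and 2 to 11 mitosis calls, and for the labelled gate 0 to 1 replication and 0 to 2 mitosis calls. The line kept 19 to 22 replication and 13 to 14 mitosis calls. In the unlabelled gate mitosis calls dropped to 2 without anterior Lgr5-positive replicate 1 or posterior Lgr5-positive replicate 2 and to 3 without posterior Lgr5-negative replicate 2, and reached 10 without anterior Lgr5-negative replicate 1 or posterior Lgr5-positive replicate 3 and 11 without posterior Lgr5-negative replicate 1. Cenpm and Cenpf were called in all 24 of these fits, Aurkb in 22, Mki67 in 21, Cenpe in 15 and Top2a in 10.

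Alternatives chosen after seeing the data left out doubtful libraries. Without replicate 3 of every E15.5 group, Gins4 for stage (-0.23, adjusted p = 0.166), Cenpf for stage (-0.34, adjusted p = 0.204) and Cenpm for the unlabelled gate (0.48, adjusted p = 0.0723) lost their calls, and the labelled gate gave 2 mitosis calls, Cenpf among them (0.92, adjusted p = 0.0410). Without replicate 3 of every Id2 group, Mki67 (0.59, adjusted p = 0.0745), Cenpe (0.63, adjusted p = 0.0873) and Top2a (0.75, adjusted p = 0.0570) lost their calls for the unlabelled gate, where 5 mitosis genes were called. Without the Id2 line, Aurkb (0.79, adjusted p = 0.0516) and Cenpe (0.73, adjusted p = 0.0590) lost theirs and 6 mitosis genes stayed the count. Without the 3 E13.5 Axin2-labelled Lgr5-positive libraries the labelled gate, then of the posterior part and the Id2 line, gave 1 mitosis call. The Axin2 label in Lgr5-positive cells was then compared in the posterior part alone. It stood there at 0.043 ± 0.34 for Gins3 and 0.19 ± 0.23 for Cenpm, opposite in sign to the averaged values and within 1 standard error of 0.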
